A study of Mus musculus with 8 samples.

Results

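The genes described here encode 10 transcription factors that are known for their places in the distal nephron: *Irx1*, *Irx2*, *Irx3*, *Sim1*, *Sim2*, *Pou3f3*, *Tfap2b*, *Mecom*, *Emx1* and *Emx2*. They were found by symbol among the 32285 genes of a droplet-based single-cell RNA count table of embryonic mouse kidneys, in which each symbol matched 1 row. The kidneys of 4 male embryos were sequenced in a single pool, which also held 4508 cells that the deposited list ties to no mouse. Mice 1 and 2 were *Trim28* Δ/Δ, in which Six2-cre removes the floxed part of *Trim28*, a co-repressor that acts on chromatin. Mice 3 and 4 were *Trim28* f/f controls that carry the floxed alleles unrecombined. The sample labels give embryonic day 17.5, and the study's methods give a stage later than that. Six2-cre is active in nephron progenitors, from which the whole nephron derives, and not in the ureteric bud, from which the collecting duct derives, so that only part of the kidney is a knockout in mice 1 and 2. Whether the controls carry Six2-cre is not in the labels.

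The cells of each mouse were recognised by a multiplexing tag, a DNA label on the cell membrane. After filtering, mice 1 to 4 kept 1316, 1491, 2749 and 1807 cells with 25761268, 31087277, 52777501 and 35851952 unique molecular identifiers (UMIs, each a counted RNA molecule), and the median cell held between 16386 and 17354 UMIs. How many cells each mouse received depended on a step of the assignment, as k-means instead of its default clustering gave 1472, 1652, 2568 and 1759 cells. Mouse 3 stood apart: a collecting duct-like cluster (175 of its 176 cells) and a loop of Henle-like cluster (103 of its 105 cells) came almost wholly from it, and the hypoxia-response gene *Egln3* reached 316 CPM (UMI counts scaled to the same total in each sum of cells) in its collecting duct-like cells against 16.3 to 19.0 CPM in the other mice. *Trim28* itself was at 26.7 and 23.2 CPM in nephron progenitor-like cells of mice 1 and 2 and at 142 and 172 CPM in those of mice 3 and 4 (log2 fold change −2.66, SE 0.21, adjusted p = 0.000299 in edgeR's quasi-likelihood test), and its log2 fold change in ureteric bud-like cells was −0.01. The 3′ end that is counted lies outside the floxed segment, so that this level does not check the deletion itself.

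The nephron forms from progenitors that condense into a renal vesicle, which is patterned along a proximal to distal axis before it elongates. Its distal end gives the thick ascending limb of the loop of Henle, which takes up salt, then the macula densa, the distal convoluted tubule and the connecting tubule, which joins the ureteric bud. Iroquois (*Irx*) homeobox genes mark the middle of the forming nephron, *Pou3f3* is needed for the loop of Henle and *Tfap2b* for distal tubules, *Sim1* and *Sim2* encode bHLH-PAS factors, *Mecom* encodes a zinc finger factor of the PRDM family, and *Emx2* is needed in the ureteric bud for a kidney to form at all.

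The promoters of *Irx2* and *Pou3f3* are shown because these genes stand for a narrow and a wide pattern along the distal nephron and because, of the 8 genes with a promoter in the table used (*Irx1* and *Sim2* had none), only these 2 had the same start there as in the gene positions given below. Each is given from 250 bases before to 50 after that start, from RefSeq on GRCm38.p6, on the + strand, with matches on either strand to CCAAT and to the homeodomain core TAATTA in capitals.
Irx2, chr13:72628570-72628869: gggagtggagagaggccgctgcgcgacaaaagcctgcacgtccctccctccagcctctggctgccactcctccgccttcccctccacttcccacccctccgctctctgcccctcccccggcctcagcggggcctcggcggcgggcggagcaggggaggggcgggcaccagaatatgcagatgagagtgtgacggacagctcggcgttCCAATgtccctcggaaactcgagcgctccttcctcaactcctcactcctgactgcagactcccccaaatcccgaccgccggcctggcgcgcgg
Pou3f3, chr1:42695518-42695817: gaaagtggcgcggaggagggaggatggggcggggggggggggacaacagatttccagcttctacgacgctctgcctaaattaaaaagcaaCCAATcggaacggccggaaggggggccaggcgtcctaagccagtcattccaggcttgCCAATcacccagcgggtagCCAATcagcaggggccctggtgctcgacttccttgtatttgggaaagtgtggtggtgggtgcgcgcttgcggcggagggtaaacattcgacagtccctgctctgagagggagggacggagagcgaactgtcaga
The *Irx2* promoter held 1 CCAAT and had 25 CpG dinucleotides at a GC content of 69.0%, and the *Pou3f3* promoter held 3 CCAAT, with 18 CpG dinucleotides at 60.3% GC. Neither held TAATTA. The median over 32851 mouse promoters was 7 CpG dinucleotides, TAATTA was found in 5.29% of them and CCAAT in 37.4%. Fewer CpG dinucleotides than in *Irx2* were held by 81.6% of promoters, and fewer than in *Pou3f3* by 70.3%.

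Cells were clustered without the 10 genes and clusters were named from marker lists that leave these genes out, so that the names do not rest on the 10 genes themselves. Genes that vary with them were kept for clustering and naming, so that their levels are not fully independent of the names. Levels are UMIs summed per mouse and class, as CPM after TMM scaling, and are compared only within a gene; 17 named classes and 2 unnamed clusters had at least 10 cells in each mouse. As all mice shared a pool, they also shared free RNA, and 353040 barcodes with 10 to 100 UMIs served to estimate it. Its CPM gives the make-up of free RNA, and the share of a cell's UMIs that came from it was not estimated. A level above or below that of free RNA thus does not tell by itself how much of it is background.

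*Irx1* and *Irx2* were high in loop of Henle-like and early distal-like cells and low in distal tubule-like cells. *Irx1* (ENSMUSG00000060969, chr13:71957921-71963723 on GRCm38, − strand) was highest in loop of Henle-like cells, at 350, 299, 275 and 245 CPM in mice 1 to 4, followed by early distal-like cells at 259, 241, 150 and 203 CPM. These classes overlapped, and both lay above cycling early distal-like cells, which had a mean of 103 ± 13.4 CPM (SD, n = 4). The cycling cells overlapped with cluster 5, an unnamed cluster led by proximal genes, where *Irx1* was at 94.8, 114, 70.3 and 118 CPM. Early proximal-like cells had 61.0 ± 17.1 CPM, a range that includes the 46.5 CPM of free RNA. In distal tubule-like cells, further along the same tubule, *Irx1* was at 7.86 ± 3.66 CPM, within the range of collecting duct-like cells and below free RNA. *Irx2* (ENSMUSG00000001504, chr13:72628820-72634198, + strand), which starts 665097 bases from *Irx1* in the same gene cluster, had nearly the same order, with 79.1, 103, 116 and 119 CPM in loop of Henle-like cells, 73.2 ± 16.9 CPM in early distal-like cells and 2.71 ± 2.38 CPM in distal tubule-like cells.

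*Irx3* (ENSMUSG00000031734, chr8:91798525-91802067, − strand) had another order across the classes. Its highest level was in cluster 5, whose leading genes included *Aadat*, *Slc22a13* and *Aqp1* of proximal tubules, at 65.9, 73.8, 72.2 and 100 CPM. Endothelial-like cells (78.0, 65.2, 50.2 and 41.6 CPM) and cycling early distal-like cells (mean 53.9 CPM) came next, without separation from it. Loop of Henle-like, early distal-like and distal tubule-like cells had means of 38.6, 28.3 and 27.2 CPM, close to the 25.2 CPM of free RNA.

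The bHLH-PAS genes had their highest mean in early distal-like cells. *Sim1* (ENSMUSG00000019913, chr10:50894754-50989152, + strand) was at 101, 89.9, 152 and 106 CPM in early distal-like cells and at 92.2, 100, 92.6 and 121 CPM in cycling ones. The cycling cells lay above loop of Henle-like cells in every mouse, while the lowest early distal-like value (89.9 CPM) met the highest loop of Henle-like value (90.5 CPM). Loop of Henle-like (70.3 ± 16 CPM), distal tubule-like (69.1 ± 18.8 CPM) and ureteric bud-like cells (57.3 ± 10.8 CPM) overlapped one another. *Sim2* (ENSMUSG00000062713, chr16:94084931-94127032, + strand) was narrower, at 89.1, 81.4, 46.7 and 85.8 CPM in early distal-like cells, at 35 ± 19.1 CPM in the loop of Henle-like class and at 33.1 ± 12.6 CPM in cycling early distal-like cells. The mean of every other class was at most 5.57 CPM, and distal tubule-like cells were lowest at 0.616 CPM. The 63.2 CPM of loop of Henle-like cells in mouse 3 came mostly from the cluster of that mouse alone, which had 111 CPM, whereas the shared cluster had 10.5 CPM in mouse 3 and 22.4 to 27.3 CPM in the other mice.

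*Pou3f3* and *Tfap2b* were high in each of the distal tubule-like, loop of Henle-like and early distal-like classes. *Pou3f3* (ENSMUSG00000045515, chr1:42695768-42703176, + strand), which encodes the POU factor Brn1, was at 225, 226, 180 and 204 CPM in distal tubule-like cells, at 193 ± 9.74 CPM in early distal-like and at 181 ± 25.5 CPM in loop of Henle-like cells, which all overlapped. It then went down in overlapping steps through cycling early distal-like (125 CPM), ureteric bud-like (114 CPM) and collecting duct-like cells (105 CPM) to intercalated-like cells (88.7 CPM), all above early proximal-like cells (39.8 CPM). *Tfap2b* (ENSMUSG00000025927, chr1:19208914-19238576, + strand), which encodes AP-2β, was highest in loop of Henle-like cells at 545, 510, 288 and 522 CPM. Distal tubule-like cells had 405, 513, 235 and 306 CPM and early distal-like cells 282, 232, 290 and 241 CPM. These 3 classes overlapped and none of their values fell below those of cycling early distal-like cells (138 ± 32.6 CPM), which in turn lay above ureteric bud-like cells (65.7 ± 18.0 CPM).

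*Mecom* (ENSMUSG00000027684, chr3:29951296-30548008, − strand) was found in many classes. Distal tubule-like cells had 350, 418, 338 and 347 CPM, early distal-like cells 350, 359, 373 and 365 CPM and loop of Henle-like cells 393, 311, 248 and 392 CPM, with no order between them beyond the spread of mice. Ureteric bud-like (255 CPM), collecting duct-like (246 CPM) and intercalated-like cells (234 CPM) followed, but so did classes outside the epithelium, with 207 ± 22.8 CPM in mural-like and 154 ± 45.4 CPM in endothelial-like cells. Nephron progenitor-like and renal vesicle-like cells were among the lowest at 26.4 and 23.2 CPM.

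The *Emx* homeobox genes were unlike each other. *Emx1* (ENSMUSG00000033726, chr6:85187438-85204462, + strand) was at 274, 233, 244 and 256 CPM in distal tubule-like cells, and no value in any other class came near, with the next mean at 18.7 ± 6.05 CPM in early distal-like cells. Loop of Henle-like cells had 9.09 ± 2.67 CPM, below the 27.8 CPM of free RNA. *Emx2* (ENSMUSG00000043969, chr19:59458372-59465357, + strand) was highest in ureteric bud-like cells, at 240, 215, 257 and 182 CPM, so that its label as a distal nephron factor covers part of its pattern only. Cycling early distal-like (221 ± 15.3 CPM), early distal-like (196 ± 40.6 CPM) and early proximal-like cells (179 ± 9.74 CPM) were not separated from it. It was lower in distal tubule-like cells (120 ± 16.1 CPM) and in loop of Henle-like cells (63.6 ± 18.8 CPM), where free RNA had 66.8 CPM. In collecting duct-like cells *Emx2* was at 163, 152 and 163 CPM in mice 1, 2 and 4 and at 37.1 CPM in mouse 3, and the cluster of mouse 3 alone had 35 CPM.

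**Figure D1:**
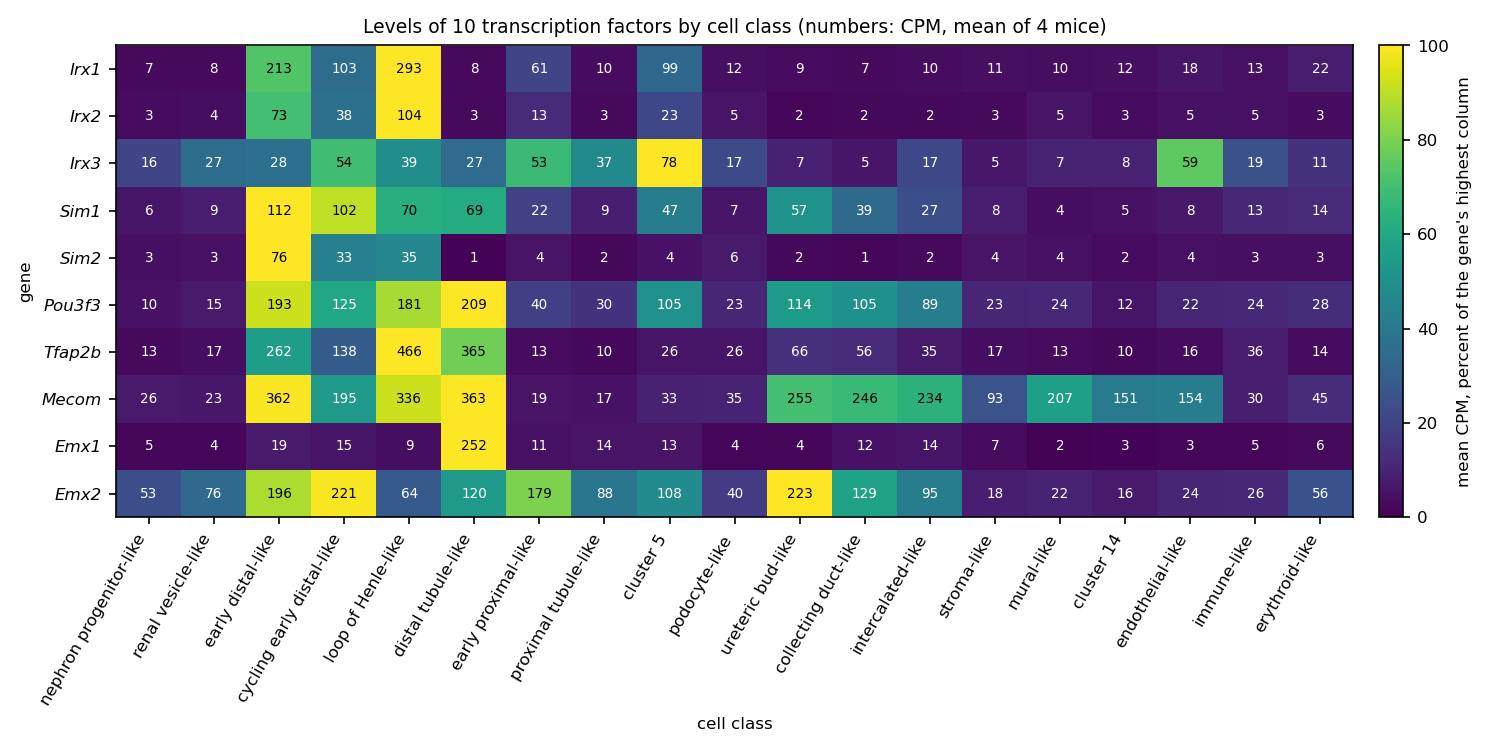
Mean level over 4 mice of the 10 genes (rows) in 19 classes of cells (columns), printed in CPM and coloured by the percent of each gene's highest class. *Emx1* is confined to distal tubule-like cells, *Irx1* and *Irx2* are highest in loop of Henle-like and early distal-like cells, and *Mecom* and *Emx2* are spread over many classes.

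**Figure D2:**
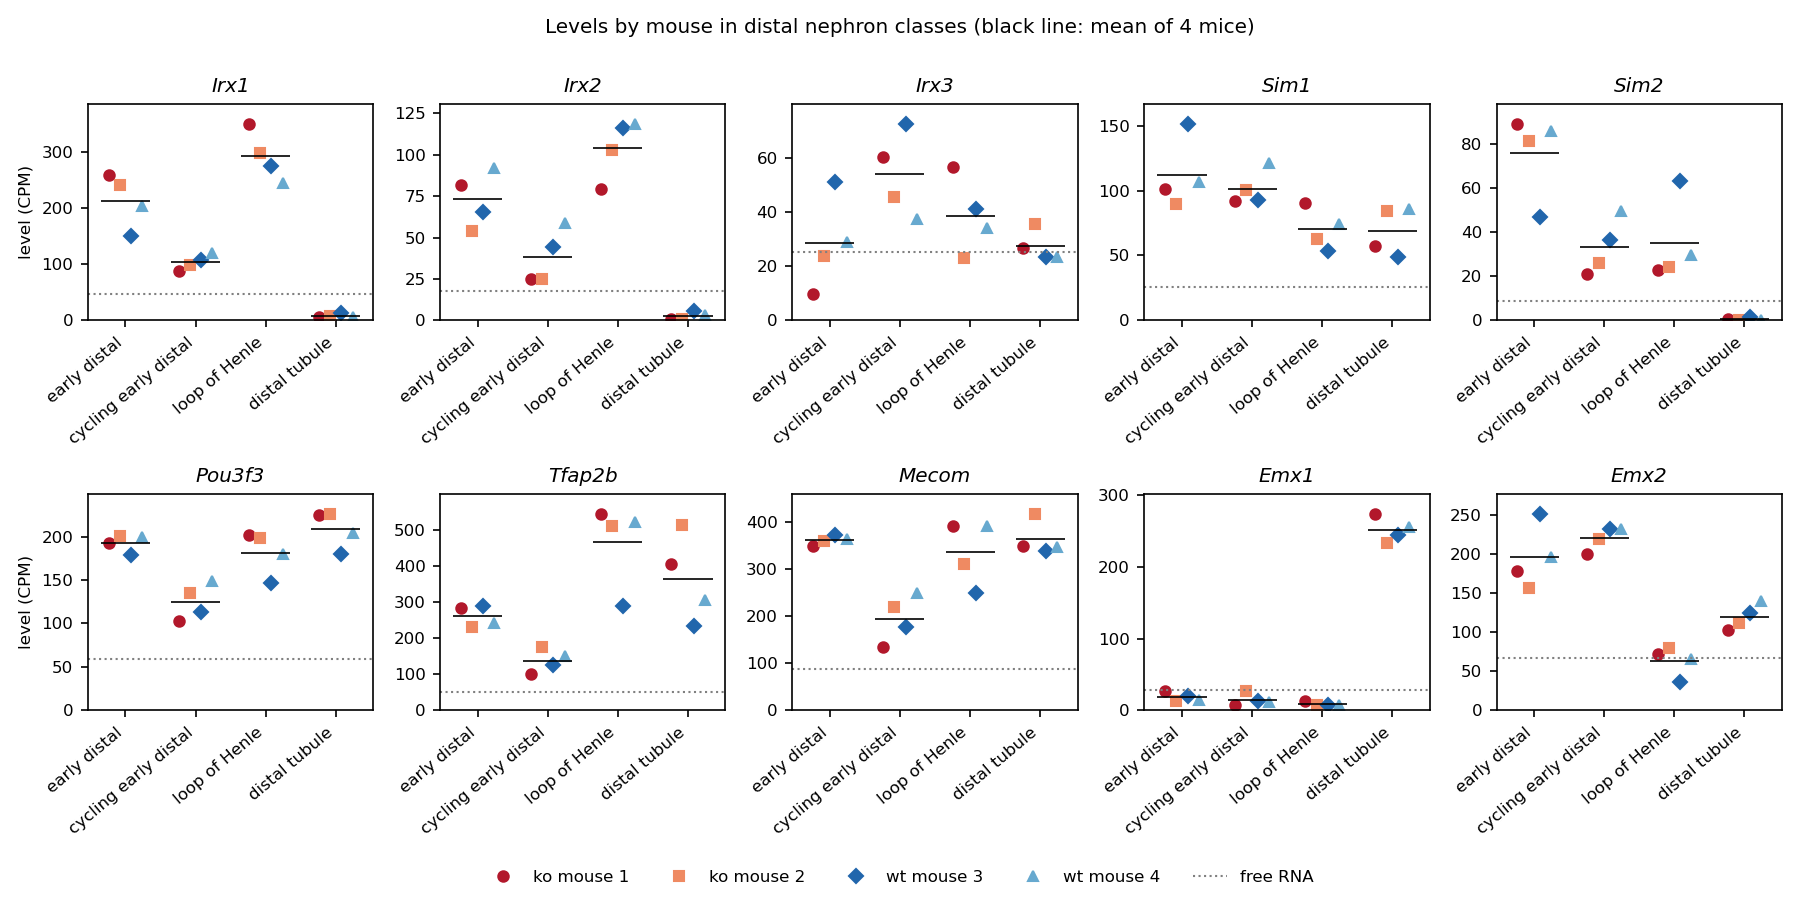
Level in CPM of each gene in 4 classes with distal names, 1 point per mouse (mice 1 and 2 *Trim28* Δ/Δ, mice 3 and 4 *Trim28* f/f), with the mean as a line and free RNA dotted. *Irx1*, *Irx2* and *Sim2* are near 0 in distal tubule-like cells, where *Emx1* is high.

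Single cells were counted after each was thinned to 6800 UMIs, below the smallest cell. A UMI of *Emx1* was then found in 70.7% of distal tubule-like cells (mean over mice; 90.2% unthinned) and in 3.40% of immune-like cells (7.12% unthinned), which should lack the gene and serve as the background. *Mecom* was found in 83.6% of distal tubule-like cells against 9.27% of immune-like cells, and *Tfap2b* in 83.1% of loop of Henle-like cells against 9.56%, whereas unthinned shares were 99.1% against 20.3% and 92.3% against 16.1%. *Irx1* was found in 60.5% and *Irx2* in 41.4% of loop of Henle-like cells (73.6% and 61.7% unthinned), against 5.40% and 2.02% of immune-like cells (9.49% and 5.20%). A thinned early distal-like cell held UMIs of 4.41 ± 0.16 of the 10 genes on average (SD, n = 4 mice), a loop of Henle-like cell 4.35 ± 0.35 and a distal tubule-like cell 3.93 ± 0.19. Ureteric bud-like cells held 2.75, early proximal-like cells 1.78 and nephron progenitor-like cells 0.668, and the last value was close to the 0.640 of immune-like cells.

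The 1162 cells of the early distal-like, loop of Henle-like and distal tubule-like classes were clustered again, without the 10 genes, into 9 sub-clusters. By their markers 3 of these were early distal-like, each with its own mixture. The first (sub-cluster 7, 69 cells, led by *Sfrp2*, *Dll1*, *Lhx1* and *Wnt4*, genes of the renal vesicle's distal pole) had *Sim1* at 261 and 182 CPM and *Irx3* at 141 and 84.1 CPM in mice 3 and 4, with too few cells of mice 1 and 2 (4 and 7) for a value. The second (sub-cluster 4, 106 cells, led by *Slc7a11*, *Wnt11* and *Corin*) had *Sim2* at 160, 190, 309 and 240 CPM and *Irx1* at 412, 417, 562 and 388 CPM, but *Tfap2b* only at 50.4 to 116 CPM. The third (sub-cluster 1, 235 cells, led by genes of DNA replication and by *Fgf8*) had the reverse, with *Tfap2b* at 315 to 486 CPM, *Mecom* at 415 to 501 CPM and *Irx1* at 148 to 217 CPM.

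Among maturing cells, a macula densa-like sub-cluster (243 cells with *Pappa2* and *Ptgs2*, and also with *Umod* of the thick ascending limb) had *Irx1* at 330 to 452 CPM, *Irx2* at 106 to 157 CPM and *Emx1* at 2.62 to 6.83 CPM. At resolution 1.0 instead of 0.6, a macula densa-like sub-cluster of 124 cells had *Umod* at 24.9, *Irx1* at 517 and *Sim2* at 7.24 CPM over all mice together. A separate thick ascending limb-like sub-cluster of 121 cells had *Umod* at 854, *Irx1* at 288 and *Sim2* at 58.3 CPM. *Irx1* and *Emx1* were high in different sub-clusters. In a sub-cluster with no name (135 cells, led by *Foxq1* and *Cldn16*), *Irx1* was at 18.9, 20.4 and 13.5 CPM and *Emx1* at 171, 135 and 118 CPM in mice 1, 2 and 4, while *Tfap2b* had its highest level of any sub-cluster, at 595, 643 and 660 CPM. *Sim1* was at 113, 105 and 148 CPM there, within or above its range of 95.0 to 142 CPM in sub-cluster 1. Mouse 3 had 9 cells there and no value. At resolution 1.0, over all mice together, the sub-cluster led by *Foxq1* and *Cldn16* (61 cells) had *Emx1* at 24.1 CPM. Another unnamed sub-cluster, led by *Sall3* and with *Slc12a3* among its leading genes (70 cells), had *Emx1* at 226 CPM. *Tfap2b* was at 667 CPM in the former and at 581 CPM in the latter. In the connecting tubule-like sub-cluster (122 cells with *S100g*, *Slc8a1* and *Calb1*), *Emx1* reached 245, 323, 285 and 247 CPM, with *Tfap2b* at 133 to 307 CPM and *Irx1* at 0 to 14.1 CPM. A last sub-cluster without a name (59 cells, led by *Aldh1a3* and with *Gata3*) had *Emx2* at 356, 299, 356 and 330 CPM, above every value of the other sub-clusters, and *Emx1* at 37.4 to 95.6 CPM. Its leading genes included *Rprm* and *Spink8*, which also led the ureteric bud-like and the collecting duct-like cells respectively. Sub-clusters were named without lists of ureteric bud or collecting duct markers, so that its place in the distal nephron is open. The other two sub-clusters came almost wholly from mouse 3, with 104 of 106 and 86 of 87 cells.

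**Figure D3:**
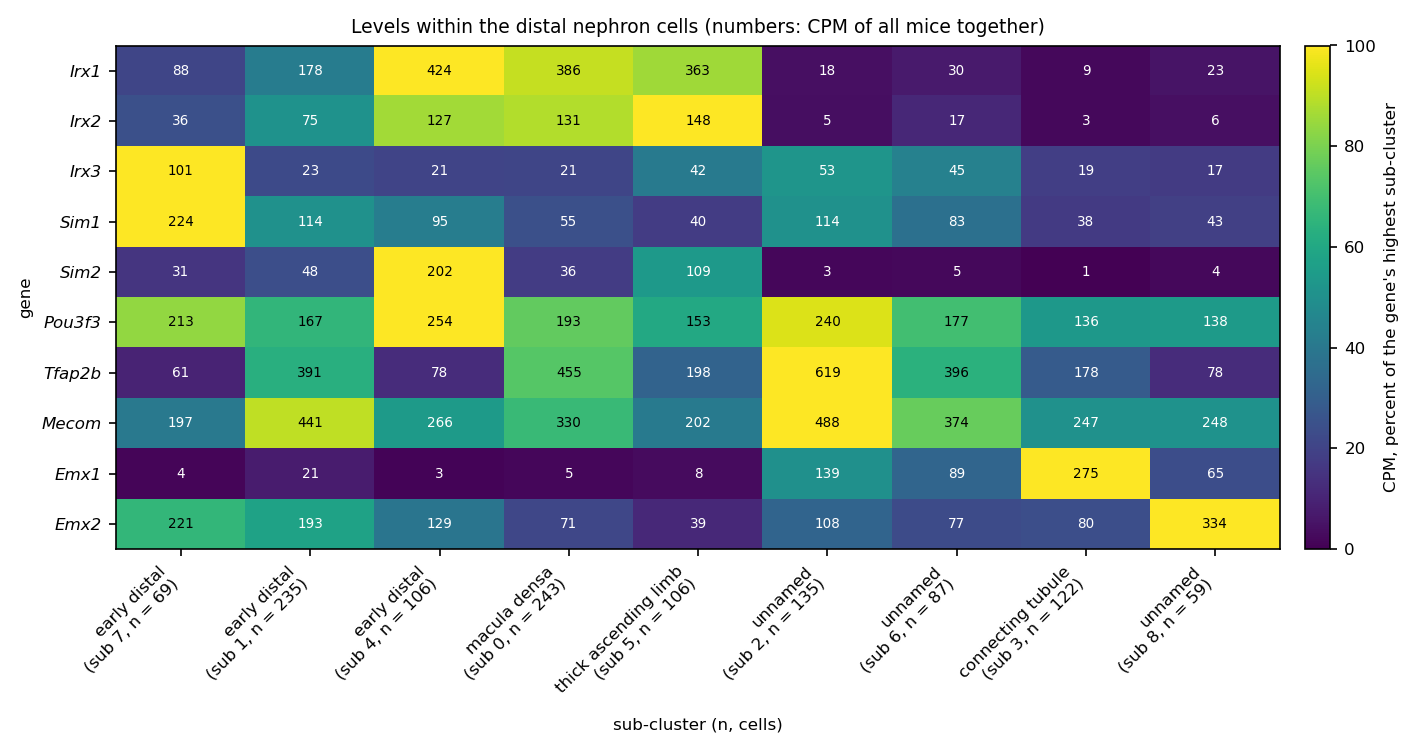
Level of the 10 genes (rows) in the 9 sub-clusters of the distal nephron (columns, with their numbers of cells), printed in CPM over all mice together and coloured by the percent of each gene's highest sub-cluster. *Irx1*, *Irx2* and *Sim2* are high on the early distal and ascending limb side, *Emx1* on the connecting tubule side, and *Tfap2b* is highest in the unnamed sub-cluster led by *Foxq1*.

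Relatives of the 10 genes were mostly low. Of 14 other members of their families, 10 stayed below 20 CPM in every class. The exceptions were *Prdm16*, a PRDM factor like *Mecom*, at 61.6 CPM in distal tubule-like cells, *Tfap2a* at 42.3 CPM in ureteric bud-like cells, *Pou3f1* at 28.5 CPM in podocyte-like cells and *Irx5* at 22.0 CPM in endothelial-like cells. Over the 19 classes, which share a pool, the gene whose log2 level ran most alike with *Irx1* was *Irx2* (Pearson's r = 0.97, a description with no test), with *Umod*, the main urinary protein of the ascending limb, next at 0.87 and *Sim2* at 0.85. *Sim2* was most like *Spon1* (0.93), *Tfap2b* most like *Cldn19* (0.95), a claudin of the ascending limb, and *Emx1* most like *Trpv5* (0.93), the calcium channel of the connecting tubule, but these 3 and *Umod* were markers used to name the classes. *Umod* and *Sim2* were also among the 3 genes most like *Irx2*, and *Irx2* and *Umod* among those most like *Sim2*. *Tfap2b* was next most like *Prdm16os* (0.94) and *Cyfip2* (0.92), and *Emx1* most like the embryonic globin gene *Hbb-y* (0.90) and the calcium channel gene *Trpv6* (0.89) after *Trpv5*. *Sim1* and *Pou3f3* were alike (0.95), and both resembled *Pantr1* (0.95 and 0.98), the non-coding neighbour of *Pou3f3*, with *Mapk13* next for *Sim1* (0.92) and *Cdh1*, which encodes E-cadherin, for *Pou3f3* (0.95). *Mecom* was most like *Prdm16*, *Adcy6* (both 0.85) and *Hoxd9* (0.83), *Irx3* most like *Exoc6*, *Irx5* (both 0.85) and *Prnp* (0.80), and *Emx2* most like *Bex1* (0.94), *Emx2os* (0.92), its antisense RNA, and *Bex4* (0.91).

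Between genotypes, none of the 10 genes was called in the distal nephron, and the only call was outside it. UMIs summed per mouse were tested in each class with edgeR (2 knockout against 2 control mice, Benjamini-Hochberg over all genes of the class, threshold 0.05). Of 190 pairs of a gene and a class, 126 passed the filter on low counts and 1 was called (0.794%), beside 509 of 170851 tests over all genes (0.298%). An unadjusted p below 0.05 was met by 15 pairs (11.9%), beside 6.92% of all tests. On simulated counts, this design recovered 79% to 98% of 4-fold and 10% to 61% of 2-fold changes, depending on the class, so that changes of 2-fold and less in single genes could often not be detected.

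**Figure D4:**
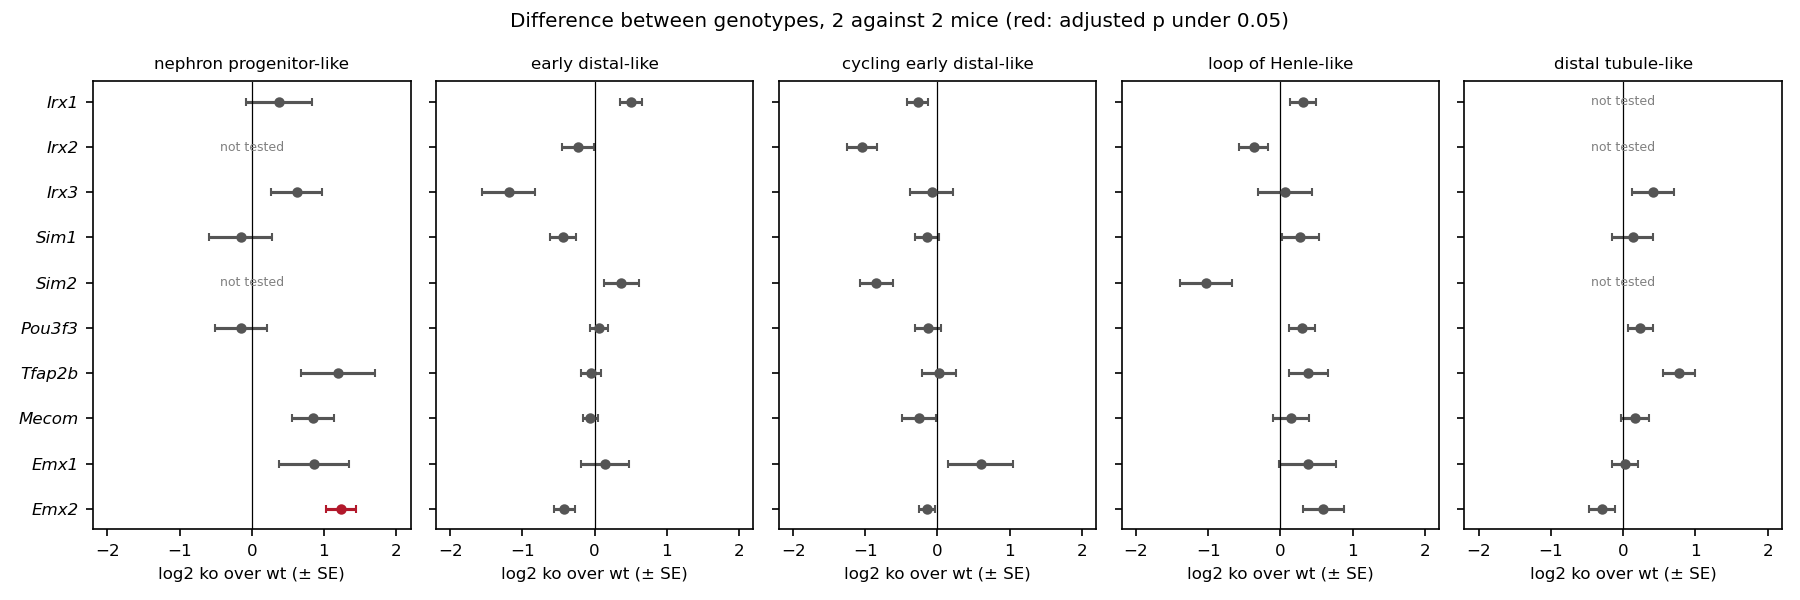
Log2 fold change (*Trim28* Δ/Δ over *Trim28* f/f) of the 10 genes in nephron progenitor-like cells and in 4 classes with distal names, from 2 against 2 mice, with bars of 1 SE and the call in red. Most values lie within 1 of 0, and *Emx2* in nephron progenitor-like cells, at 1.24, is the call.

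In early distal-like cells, all 10 genes were tested and none was called, where 0.682% of all genes were (DESeq2 called 0, and 4 genes reached an unadjusted p below 0.05). *Irx1* was at 259 and 241 CPM in the knockout and at 150 and 203 CPM in the control mice (log2 fold change 0.50, SE 0.15, adjusted p = 0.221). *Irx3* was at 9.75 and 23.7 CPM against 51.1 and 28.7 CPM (−1.19, SE 0.36, adjusted p = 0.237). Both *Irx1* and *Irx3* were called without the filter, with k-means for the tags and with a minimum of 2500 UMIs per cell. Each had 9 alternatives without a call, where *Irx1* was between 0.14 and 0.58 and *Irx3* between −2.04 and −0.70. The make-up of the distal cells moved with these values and its part in them was not tested: the sub-cluster with high *Irx1* and *Sim2* held 32, 42, 12 and 20 cells of mice 1 to 4, the sub-cluster with high *Irx3* and *Sim1* 4, 7, 38 and 20, and within the former *Irx1* was at 412 and 417 CPM in the knockout and at 562 and 388 CPM in the control mice. Mouse 3, which had the lowest *Irx1* and the highest *Irx3*, also stood apart in this class in the hypoxia-response genes, with *Vegfa* at 166 CPM against 62.4 to 66.2 CPM in the other mice and *Egln3* at 16.3 CPM against 3.43 to 6.26 CPM, and their part was not tested. *Sim1* (−0.44, SE 0.18, adjusted p = 0.417) and *Emx2* (−0.42, SE 0.15, adjusted p = 0.314) were the other two with an unadjusted p below 0.05. *Tfap2b* (−0.05, SE 0.14), *Pou3f3* (0.06, SE 0.12) and *Mecom* (−0.06, SE 0.10) had log2 fold changes near 0.

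In loop of Henle-like cells, all 10 genes were tested and none was called (0.136% of all genes; 1 unadjusted p below 0.05, and 0 by DESeq2). That gene was *Sim2*, at 22.8 and 24.1 CPM against 63.2 and 29.7 CPM (−1.03, SE 0.36, adjusted p = 0.516), and without the cluster of mouse 3 alone its log2 fold change was 0.33. In distal tubule-like cells, 7 genes were tested and none was called (0.553% of all genes; 1 unadjusted p below 0.05, and 0 by DESeq2). *Tfap2b* was at 405 and 513 CPM against 235 and 306 CPM there (0.77, SE 0.22, adjusted p = 0.227). *Vegfa*, a hypoxia-response gene like *Egln3*, was at 306 CPM in mouse 3 and at 84.1 to 92.7 CPM in the other mice in the same class, and its part in the *Tfap2b* difference was not tested. The make-up of these cells moved with genotype too, and its part was not tested. Of 6 tested collecting duct markers out of 7, 3 were called lower in the knockout and the list summed to 784 and 642 CPM against 1448 and 1763 CPM. Of 4 tested intercalated markers out of 7, 1 was called lower (list sum 31.5 and 59.0 CPM against 139 and 224 CPM). The unnamed sub-cluster with the highest *Tfap2b* held 56, 41, 9 and 29 cells of mice 1 to 4, and the connecting tubule-like one, where *Tfap2b* was lower, 27, 16, 53 and 26. Within the former, *Tfap2b* was at 595 and 643 CPM in the knockout and at 660 CPM in mouse 4. Within the latter it was at 205 and 307 CPM against 133 and 165 CPM. *Emx1*, at 274 and 233 against 244 and 256 CPM, had a log2 fold change of 0.02 (SE 0.18). In cycling early distal-like cells, none of 10 was called (0.203% of all genes; 2 unadjusted p below 0.05, and 0 by DESeq2). *Irx2* was at 25.1 and 24.8 CPM against 44.3 and 58.9 CPM (−1.04, SE 0.21, adjusted p = 0.176) and *Sim2* at 20.8 and 26.0 CPM against 36.2 and 49.3 CPM (−0.85, SE 0.23, adjusted p = 0.437). This class was led by cell cycle genes such as *Ube2c*, and the renal vesicle list came second in its naming. Its early distal markers summed to 437, 388, 463 and 553 CPM in mice 1 to 4, and its early proximal markers to 659, 573, 739 and 476 CPM. At resolution 1.2 no class took its name, and a cycling renal vesicle-like class was found. In the ureteric bud-like and collecting duct-like classes, where Six2-cre is not active, 0.0% of all genes were called and none of the 10 genes had an unadjusted p below 0.05 or was called by DESeq2, which called 1 of all genes in collecting duct-like cells. The other classes gave no call either, at backgrounds of 0.436% in proximal tubule-like cells, 0.4% in early proximal-like cells, 0.222% in cluster 5, 0.109% in podocyte-like cells, 0.0694% in cluster 14 (led by mural genes such as *Pdgfrb*), 0.0316% in intercalated-like and 0.0288% in immune-like cells, and 0.0% in the endothelial-like, stroma-like, mural-like and erythroid-like classes. Among them, *Irx3* in endothelial-like cells (0.63), *Emx2* in cluster 5 (0.49) and *Mecom* in immune-like cells (1.03) had an unadjusted p below 0.05.

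*Emx2* was higher in the knockout among nephron progenitor-like cells, the class from which the nephron starts. It was at 72.1 and 77.2 CPM in mice 1 and 2 and at 34.7 and 29.0 CPM in mice 3 and 4 (log2 fold change 1.24, SE 0.21, adjusted p = 0.0195), where 1 of 8 tested genes and 1.63% of all genes were called. The knockout values were above, and the control values below, the 66.8 CPM of free RNA. After thinning, a UMI of *Emx2* was found in 19.6%, 30.1%, 15% and 12% of these cells in mice 1 to 4 (39.1%, 43.8%, 26.6% and 26.3% unthinned), against 7.69%, 13.9%, 9.59% and 8.57% of immune-like cells (26.9%, 27.8%, 19.2% and 28.6% unthinned). The exact two-sided permutation test of the 4 thinned shares gave p = 0.333, the smallest it can give. The antisense RNA *Emx2os*, whose gene overlaps the 5′ end of *Emx2* by 263 bases on the other strand and which was named after its values were seen, was at 15.8 and 11.6 CPM against 4.27 and 4.39 CPM (1.63, SE 0.40, adjusted p = 0.0887). The 3′ ends that are counted lie apart.

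The nephron progenitor-like class held 2 clusters. The first (cluster 8) was led by *Tmem100*, *Six2*, *Wt1* and *Wnt4* and held as many markers of the renal vesicle as of progenitors among its leading genes, and it gave 71.7%, 53.4%, 58.9% and 45.6% of the class in mice 1 to 4. In it *Emx2* was at 86.6 and 106 CPM against 41.8 and 39.3 CPM. The second (cluster 9) was led by *Cited1*, a gene of uninduced progenitors, and had 27.7 and 32.6 CPM against 15.8 and 11.8 CPM, from 5, 16, 20 and 40 UMIs. *Emx2* was called in the first cluster alone (1.14, adjusted p = 0.0260) and was not called in the second (1.08, adjusted p = 0.579). In each cluster, both control mice were below both knockout mice, an order whose share over all genes was not counted.

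**Figure D5:**
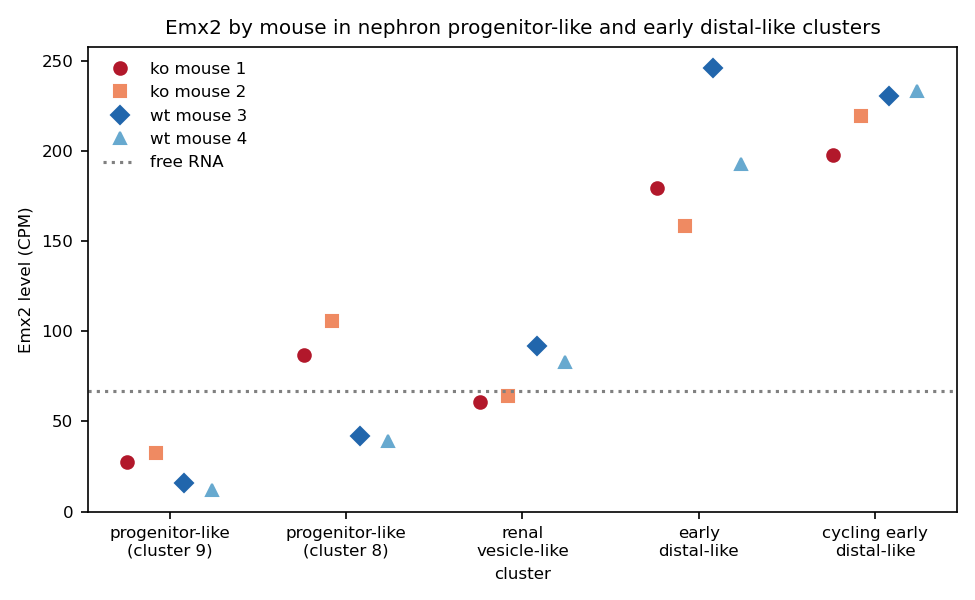
Level of *Emx2* in CPM in the 2 nephron progenitor-like clusters and in the renal vesicle-like, early distal-like and cycling early distal-like clusters, 1 point per mouse, with free RNA as a dotted line. Knockout mice lie above control mice in both progenitor-like clusters and below them in the other clusters.

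Markers of other stages moved with genotype in the same class, and their part in the *Emx2* difference was not tested. Of 8 progenitor markers, 5 were called lower in the knockout (*Cited1* −3.58, *Meox1* −2.44, *Osr1* −1.46, *Six2* −1.42 and *Eya1* −1.06 on the log2 scale), and the list summed to 274 and 407 CPM against 886 and 1118 CPM. Under other settings, *Six2* was between −2.60 and −1.32 in the 11 that kept its call and between −1.46 and −0.34 in the 4 that lost it. Of 7 renal vesicle markers, 3 were called higher (*Wnt4*, *Ccnd1* and *Lhx1*) and the list summed to 2332 and 2017 CPM against 1278 and 1390 CPM, with no marker at 0. Of 6 early proximal markers, 2 were called higher (*Cthrc1* 2.14 and *Cdh6* 0.95 on the log2 scale) and the list summed to 355 and 299 CPM against 228 and 158 CPM, none of them at 0. The early proximal-like class is also one where *Emx2* was high (179 CPM). In renal vesicle-like cells themselves *Emx2* was at 59.1 and 63.9 CPM in the knockout and at 97.0 and 85.5 CPM in the control mice (−0.57, SE 0.23, adjusted p = 0.762), and none of the 10 genes was called there (0.282% of all genes; 1 unadjusted p below 0.05, that of *Emx2*, and 0 by DESeq2). Of the other genes in progenitor-like cells, *Tfap2b* (5.92 and 28.7 against 9.07 and 7.23 CPM; 1.19, SE 0.52, adjusted p = 0.468) and *Mecom* (25.7 and 41.7 against 19.5 and 18.7 CPM; 0.85, SE 0.29, adjusted p = 0.276) were not called and lay below their levels in free RNA. The *Emx2* call was lost without mouse 1 (1.27), without mouse 2 (1.17) and where cells marked by Scrublet were removed (0.98, adjusted p = 0.675). In the last case the class held 15, 33, 83 and 210 cells of mice 1 to 4, close to the 13, 34, 85 and 209 of cluster 9. The part of this change of cells in the lost call was not tested.

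The log2 fold change of *Emx2* differed between nephron progenitor-like and early distal-like cells. The interaction of genotype with class, tested with the mouse as a block and chosen after these values were seen, gave 1.66 (SE 0.18, adjusted p = 0.000372) for *Emx2*, and 1.96 (SE 0.37, adjusted p = 0.0147) for *Emx2os*. *Emx2* was the only 1 of the 10 genes called, where 1.44% of all genes were. The adjusted p of *Irx3* was 0.056 and that of *Mecom* 0.057. Markers of stage moved with genotype in both classes. The renal vesicle list summed to 2332 and 2017 CPM against 1278 and 1390 CPM in nephron progenitor-like cells. In early distal-like cells it summed to 1417 and 1339 CPM against 1920 and 1792 CPM. The part of stage in this interaction was not tested. Of 33 other tubule factors, 24 were tested in this interaction, and 3 were called with a positive value. They were *Lhx1* (1.997, adjusted p = 2.17e-06), *Sox9* (2.13, adjusted p = 0.0088) and *Maf* (1.29, adjusted p = 0.0275). *Pax2* was called with a negative value (−0.95, adjusted p = 0.0088). Among 5 tested relatives out of 14, *Pou3f1* was called (5.32, SE 1.06, adjusted p = 0.021). For this interaction, these genes were named after their values were seen. The planned interaction set the loop of Henle-like and distal tubule-like classes together against the ureteric lineage. That lineage was made of the ureteric bud-like, collecting duct-like and intercalated-like classes. The intercalated-like class was put there by its name, and the origin of its cells was not tested. The planned interaction called none of the 10 genes (0.21% of all genes), and 1 had an unadjusted p below 0.05, *Emx1* at 1.10 with adjusted p = 0.307. *Trim28* was called in it (−1.61, SE 0.20, adjusted p = 0.0074).

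Other transcription factors and effectors of the tubule were read beside the 10 genes from lists written for this purpose. In early distal-like cells, where 0.682% of all genes were called, 24 of 33 other tubule factors were tested, of which 2 were lower in the knockout: *Lhx1*, needed for the renal vesicle, at 166 and 163 CPM against 406 and 367 CPM (−1.23, SE 0.11, adjusted p = 0.000591), and *Sox9* (−1.03, SE 0.14, adjusted p = 0.00772). Of 30 tested distal effectors out of 40, *Calb1*, a calcium-binding protein of the connecting tubule, was higher (1.30, SE 0.22, adjusted p = 0.0275), and among relatives *Tfap2a* was lower at 1.95 and 6.26 CPM against 22.2 and 21.0 CPM (−2.27, SE 0.39, adjusted p = 0.0292). Markers of stage moved with genotype in early distal-like cells, and their part in these calls was not tested. Of the renal vesicle markers, 2 of 6 tested out of 7, *Lhx1* on the list, were called lower, and the list summed to 1417 and 1339 CPM against 1920 and 1792 CPM. Of the early distal markers, 2 of 7 were called lower, and 1 of 4 tested distal tubule markers out of 6 was called higher. The sub-cluster led in part by *Lhx1* held 4, 7, 38 and 20 cells of mice 1 to 4. In distal tubule-like cells, where 0.553% of all genes were called, 0 of 20 factors were called (6 with an unadjusted p below 0.05) and 1 of 31 effectors was, *Ckb*, which was lower (−1.30, SE 0.25, adjusted p = 0.0499). In loop of Henle-like cells, 0 of 23 factors (5 with an unadjusted p below 0.05) and 0 of 34 effectors (10) were called. Over all genes, 757 of 9230 in distal tubule-like and 868 of 10261 in loop of Henle-like cells had an unadjusted p below 0.05. In nephron progenitor-like cells, 18 of the 33 factors were tested and 2 were called, beside 1.63% of all genes. They were named after their values were seen: *Pax2*, needed for the nephron to form, was lower (−0.94, SE 0.16, adjusted p = 0.0195) and *Lhx1* was higher (0.77, SE 0.15, adjusted p = 0.0303). In the other classes 2 effectors were called, also named after their values were seen. *Kl*, the FGF23 co-receptor, was lower in cluster 5 (1 of 25 tested, beside 0.222% of all genes; −1.38, SE 0.18, adjusted p = 0.0314). *S100g*, a marker on the distal tubule list, was lower in intercalated-like cells, at 205 and 148 CPM against 2049 and 7929 CPM (−4.84, SE 0.56, adjusted p = 0.0246). It was 1 of 20 tested there, beside 0.0316% of all genes, and the class held 10, 20, 32 and 25 cells of mice 1 to 4. In the planned interaction of the distal nephron with the ureteric lineage, *S100g* was the only 1 of 37 tested effectors called (1.75, SE 0.22, adjusted p = 0.0074). The ureteric lineage there includes the intercalated-like class, so that the 2 calls of *S100g* share cells. The positive value alone does not show a rise in the distal nephron. The median log2 fold change of the 10 genes' tested members was −0.06 in early distal-like, 0.29 in loop of Henle-like, 0.16 in distal tubule-like and 0.73 in nephron progenitor-like cells. The median of all genes was −0.01 or 0 in each, to 2 decimals. In nephron progenitor-like cells, the mean of each of the 8 tested genes, *Emx2* among them, lay below its level in free RNA.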

How the data were processed

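The single-cell gene expression and multiplexing tag libraries of a single pool were used; 6 bulk RNA samples of newborn kidneys were not analysed here. The authors made the deposited counts with Cell Ranger 6.0.0 (per the submitters' processing notes, which name GRCm38/mm10), as whole UMI counts for 32285 genes and 12 tags in 3921239 barcodes, without normalization or selection of cells. The sources used here do not give the annotation or the use of strand; gene positions are from GENCODE M21. The deposited tag list names the mouse for 4 tags, and 4508 cells with 4 other tags were not used.

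Cells were called at a minimum of 6891 UMIs (24000 expected cells), 200 genes and at most 10% mitochondrial UMIs, and assigned with HTODemux (quantile 0.99), which set aside 4721 cells with several tags and 2680 with none. Scrublet, run as an alternative, marked 7.65% of assigned cells. They were normalized with SCTransform and clustered on 30 principal components at resolution 0.8 (Seurat 5.3.0, sctransform 0.4.2, R 4.3.3). A cluster took the name of the marker list with the highest mean log2 ratio to other clusters (10 CPM added), if it was at least 0.5, at least 3 markers were 1.5-fold higher and in 10% of cells, and no other list held more of the 10 leading genes; these limits were set after the clusters were seen. Names are thus rebuilt and may differ from the authors'.

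UMIs summed per mouse and class were tested with edgeR 4.0.16 (filterByExpr, TMM, quasi-likelihood); SE is the absolute log2 fold change over the square root of F. DESeq2 1.42.0 was an alternative. Fits were tested on simulated counts with known changes. Permutation tests used scipy 1.17.1. Likeness is Pearson's r of log2(CPM + 10) over 19 classes among 10536 genes with at least 20 CPM in some class.

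The 10 genes are always named, with *Trim28* and *Six2*, the 3 genes most like each, relatives at 20 CPM or more, and genes of the lists called in early distal-like, loop of Henle-like or distal tubule-like cells. The genes, lists and tests were chosen with earlier results of these data known. Alternatives were no filter, DESeq2, leaving out each mouse, k-means, 2500 UMIs, Scrublet, resolution 1.2 and clustering with the 10 genes, and, added after the data were seen, a tag share of at least 0.7, single clusters and leaving out clusters of 1 mouse.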

Additional observations from a re-analysis of the deposited data

Results flagged for a closer look

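The difference of *Emx2* between genotypes was not the same in 2 classes of the same mice: the log2 fold change in nephron progenitor-like cells minus that in early distal-like cells was 1.66 (SE 0.18, adjusted p = 0.000372 in edgeR's interaction test, chosen after the values were seen), and the antisense RNA *Emx2os* gave 1.96 (SE 0.37, adjusted p = 0.0147). Markers of stage also moved with genotype in both classes, and their part in these values was not tested. For *Trim28*, the log2 fold change in loop of Henle-like and distal tubule-like cells minus that in the ureteric bud-like, collecting duct-like and intercalated-like classes was −1.61 (SE 0.20, adjusted p = 0.0074). A signal also lies outside the comparisons: 4508 cells carried 1 of the 4 tags for which the deposited list names no mouse. Groups of 2 mice are too small for a search for outlying samples.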

How the results depend on the processing

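Of the 119 counts of called genes under other settings that kept every mouse, 111 stayed within 1.5 times the reported count. Without the filter on low counts, 2 genes were called in early distal-like cells (*Irx1* and *Irx3*), 1 in distal tubule-like (*Tfap2b*), 2 in cycling early distal-like cells (*Irx2* and *Sim2*), 1 for the distal nephron against the ureteric lineage (*Emx1*) and 4 for nephron progenitor-like against early distal-like cells. In early distal-like cells, k-means and a minimum of 2500 UMIs called 2 each. Without cells marked by Scrublet, 0 genes were called in nephron progenitor-like cells, where *Emx2* had a log2 fold change of 0.98 (adjusted p = 0.675). The class then held 1 cluster, with 15, 33, 83 and 210 cells of mice 1 to 4. In the main choice the cluster led by *Cited1* held 13, 34, 85 and 209 cells, and the other 33, 39, 122 and 175. The cause of the lost call was not tested. Over its 15 alternatives *Emx2* stayed between 0.98 and 1.38, and in the cluster led by *Cited1* alone, with fewer cells, it was 1.08 (adjusted p = 0.579). Leaving out each mouse in turn gave 1.10 to 1.38 for it, and counts from 0 to 3 in nephron progenitor-like, 0 to 5 in early distal-like and in collecting duct-like, 0 to 3 in loop of Henle-like and proximal tubule-like, 0 to 2 in early proximal-like and endothelial-like, and 0 to 1 in distal tubule-like and cycling early distal-like cells, from 0 to 2 for the distal nephron against the ureteric lineage and from 1 to 2 for nephron progenitor-like against early distal-like cells. The highest counts of the early distal-like, collecting duct-like and loop of Henle-like cells came without mouse 4, when mouse 3 was the only control and its spread was taken from the knockout pair; of all genes, 1194 of 11583, 3371 of 11650 and 1095 of 10909 were called in these fits. Cycling early distal-like cells gave no count with Scrublet, at resolution 1.2 or with a tag share of at least 0.7, and collecting duct-like cells none at 2500 UMIs or without clusters of 1 mouse. Signs reversed for *Sim2* in loop of Henle-like cells without clusters of 1 mouse (0.33), and without mouse 2 for *Tfap2b* in nephron progenitor-like cells (−0.45, up to 1.82 without mouse 1) and in these against early distal-like cells (−0.54, up to 2.02 without mouse 1). No paired analysis was possible because the mice of the pool share no replicate numbers between genotypes. With 2 mice a group and classes of 165957 UMIs or more per mouse, changes below 2-fold were often not detectable.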
